A study of Mus musculus with 18 samples.

Results

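Sterol and fatty acid synthesis genes were examined in mouse T cells of the C57BL/6 strain. The 29 genes were taken by name: 17 enzymes that lead from acetyl-CoA units to cholesterol, 5 genes of the SREBP control system, a sterol carrier and a thiolase, and 5 genes of fatty acid synthesis and desaturation. All 29 were found among the 43432 genes of the expression table, and all 29 had a mean of at least 50, the level from which 10972 genes were tested. The series held 18 samples, 8 of them RNA-seq libraries and 10 of them GCLiPP libraries of resting or stimulated cells (4 CD8, 6 Th2). GCLiPP sequences the stretches of RNA that were crosslinked to protein by ultraviolet light and so protected from RNase T1.

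The 8 RNA-seq libraries covered each combination of actinomycin D or no drug, stimulated or resting, and CD8 or Th2 once. CD8 cells were cultured with IL-12 and IL-2, and Th2 cells, which are CD4 cells, with IL-4, IL-2 and an antibody to Ifn-gamma. Per the labels, both grew for 5 days on plates that carried anti-CD3 and anti-CD28, whereas the methods describe a move to uncoated dishes within the culture. For the last 4 h stimulated cells had PMA and ionomycin, which imitate signalling from the T cell receptor, and resting cells had fresh medium. The actinomycin libraries carried an inhibitor of RNA synthesis, for a time the labels do not give. The methods describe cells cultured from several pooled mice, actinomycin D added after stimulation, a Trizol lysis for drug-treated cells, and for untreated RNA a lysate of irradiated cells cleared of nuclei. If these libraries were prepared so, drug and preparation cannot be told apart. No condition was repeated, so matched libraries of other conditions served as replicates, and p-values measure only the spread between these libraries.

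Cells build cholesterol from acetyl-CoA through mevalonate, which is turned into isoprenoid units, squalene and then a sterol ring. Fatty acids are built from the same acetyl-CoA by acetyl-CoA carboxylase and fatty acid synthase and are desaturated by the Scd enzymes. The SREBP transcription factors drive both branches: when membrane sterol is low, Scap escorts them from the endoplasmic reticulum to be cleaved, and when it is high the Insig proteins hold Scap back. Dividing T cells draw on these pathways for new membrane.

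Short stretches are shown first for the genes on which the results turn. They are the middle 30 bases of the peak with the highest score in each gene, 5′ to 3′ on the RNA strand, taken from GENCODE M21 transcripts on GRCm38, the build of the peaks (mm10). They are in lower case because no searched motif fell in them.
Scd2: catgctgtggctaaggaccccgtaaaataa
Srebf2: gagctgtgaggatgaaggcaagactgattg
Scd1: ttttagaactggctgtgtaaggtgccaaac
Acly: gcagctgccacctcagtctcttctctgtgt
Hmgcs1: tggcacggagcgttaaccacaccttactaa
Sqle: cttgaggaccaagcttgtgtataagcatgt
The Scd2 stretch lies at chr19:44305611-44305640 on the plus strand, in a peak with a score of 249. That of Srebf2 lies at chr15:82204026-82204055 (plus strand, score 201) and that of Scd1 at chr19:44395782-44395811 (minus strand, score 193). Those of Acly (chr11:100476396-100476425, minus strand, score 136), Hmgcs1 (chr13:119708012-119708041, plus strand, score 119) and Sqle (chr15:59330999-59331028, plus strand, score 89) follow. All 6 peaks lay inside an annotated 3′ UTR, which is where, per the methods, peaks were searched for.

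A further set shows the motifs that were searched. AATAAA is the usual polyadenylation signal and ATTTA the core of AU-rich elements, and the capitals mark them in peaks of the members.
Scd2, near the gene's end: gtgtttgttcatAATAAAatgaaatgatct
Insig1: atccagaattaaAATAAAgggttgtgtaaa
Cyp51: cacactccccaaAATAAAacctcttttctc
Hsd17b7: gtcaagctgtgtATTTAtgtctcttactat
These stretches lie at chr19:44306825-44306854 (plus strand) for Scd2, chr5:28077240-28077269 (plus strand) for Insig1, chr5:4082119-4082148 (minus strand) for Cyp51 and chr1:169949818-169949847 (minus strand) for Hsd17b7. AATAAA stood in 6.29% of the 175 member peaks whose sequence could be read, against 6.57% of 25741 peaks in the whole list. ATTTA stood in 5.14% of the member peaks, against 7.93% of the list.

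Promoters were read from RefSeq windows of 250 bases before to 50 after a transcription start (GRCm38.p6), which 23 of the 29 members matched. The sterol-response-like motif TCACNCCAC, the E-box CACGTG, which SREBPs and other factors can bind, and CCAAT, the NF-Y motif, were searched on both strands. The E-box reads the same on both strands, and none of the motifs contains another. Capitals mark the match.
Hmgcs1: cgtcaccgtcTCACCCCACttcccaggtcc
Insig1: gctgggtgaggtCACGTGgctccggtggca
Hsd17b7: ggacccttgtgtCACGTGgctccgcccctc
Sc5d: ctacgcggcgacCACGTGaccgccgcgacc
The Hmgcs1 stretch (chr13:119690204-119690233, plus strand) was the only member window with TCACNCCAC, which 1.24% of all 32851 windows held. The E-box was in the windows of 5 members, those of Insig1 (chr5:28071299-28071328, plus strand), Hsd17b7 (chr1:169969331-169969360, minus strand), Sc5d (chr9:42264381-42264410, minus strand), Dhcr7 and Scap. That was 21.7% of the 23 members with a window, against 12.3% of 8262 tested genes with one. CCAAT was in the windows of 20 of the 23 members, against 43.5% of the tested genes. Counted by window it stood in 67.7% of the 31 member windows and in 37.4% of all windows. A match of letters is not a measured binding site.

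The expression values are the authors' normalised read counts per gene, and the reads recovered from them came to between 24154849 and 31042504 a library. The 5 T cell markers summed to 48620 to 65087 in CD8 libraries and 58197 to 84212 in Th2 libraries. The Th2 list of 6 genes summed to 87.6 to 526 in CD8 libraries and 32319 to 124004 in Th2 libraries, and the CD8 list to 278476 to 601975 in CD8 libraries and 97034 to 155916 in Th2 libraries. By these sums the markers went with the labels. The CD8 sums were mostly Gzmb (255366 to 476654 in CD8 libraries, 92569 to 149171 in Th2 libraries). Th2 libraries also held Cd8a (1331 to 2401, against 10516 to 15750 in CD8 libraries) and Cd8b1 (1402 to 2361, against 6269 to 9591). The part of these transcripts in the differences between cell types was not tested. Adipocyte and hepatocyte lists of 4 genes each, cells known for lipid synthesis, summed to 0 in CD8 libraries and to at most 14.7 and 3.40 in Th2 libraries. B cell genes summed to 136 to 231 in CD8 libraries and 721 to 841 in Th2 libraries, and stromal genes to 350 to 776 in CD8 libraries and 1169 to 1917 in Th2 libraries. The stromal sums were nearly all Pecam1 (318 to 776 in CD8 libraries, 1165.5 to 1905 in Th2 libraries). The collagen genes of that list reached at most 32.0 (Col1a1), 1.04 (Col1a2) and 0 (Col3a1). The myeloid list summed to 114 to 459.9 in CD8 libraries and 159.7 to 479 in Th2 libraries.

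The members together took 0.473% to 0.894% of the signal of a library. Scd2, a stearoyl-CoA desaturase that puts the double bond into saturated fatty acids, alone had a mean of 68498 and ranked 14 among the tested genes. Acly, which splits citrate into acetyl-CoA (mean 14743), Cyp51, the lanosterol demethylase (12557), and Scd1, the other desaturase (10785), came next. Idi1, the isomerase of the isoprenoid unit, was lowest with a mean of 106. Per kilobase of annotated exon the order began with Scd2 at 12536, Cyp51 at 2844, Acly at 2793 and Scd1 at 2205, and ended with Acaca at 74.7 and Idi1 at 30.1.

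**Figure D1:**
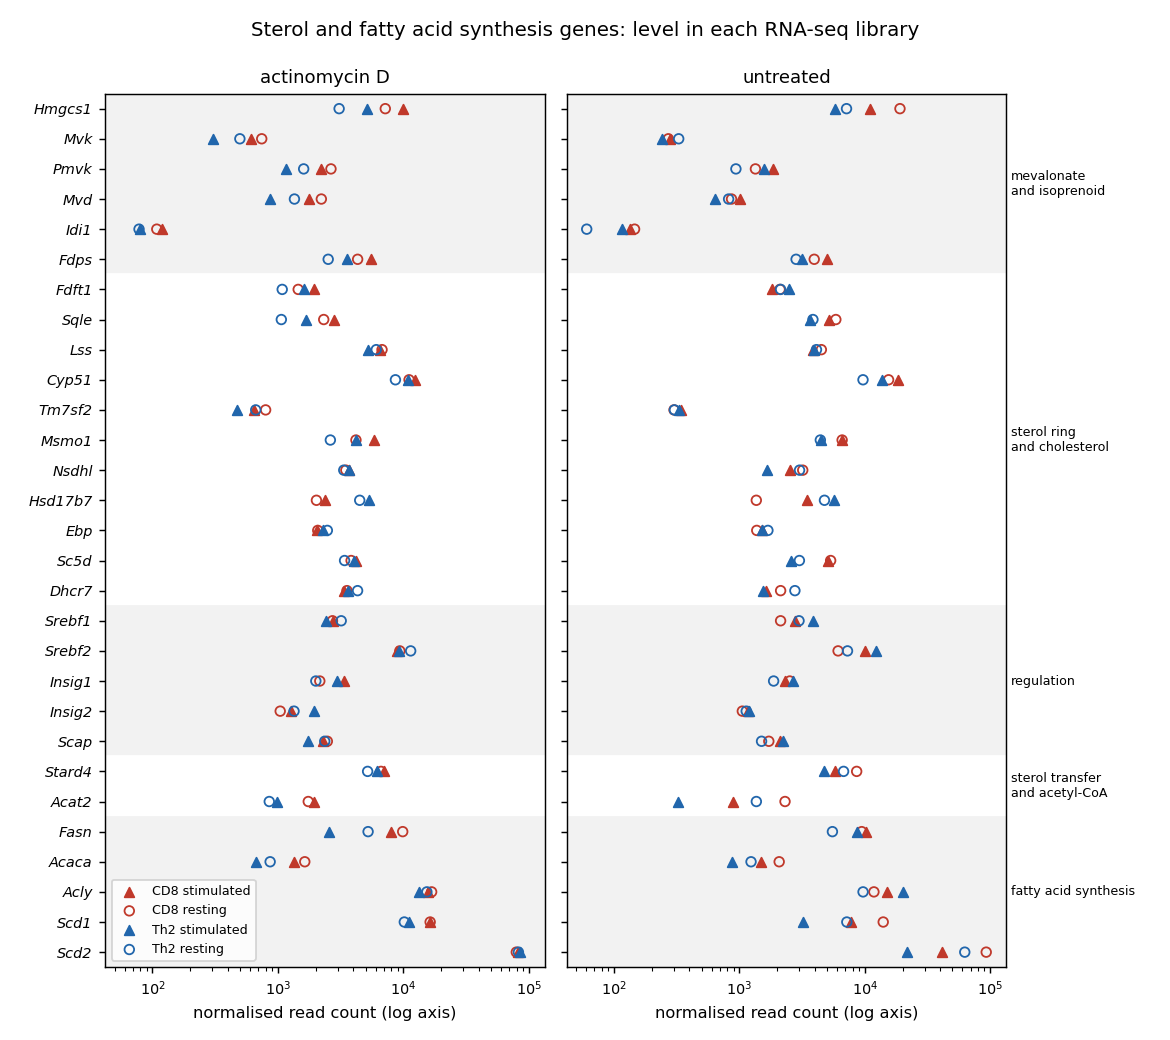
Level of each of the 29 genes in each of the 8 RNA-seq libraries, as normalised read counts on a log axis, with actinomycin D on the left and untreated cells on the right; triangles are stimulated and circles resting cells, red CD8 and blue Th2, 1 library each. In untreated cells the stimulated Scd2 points (41567 and 21650.3) stand left of the resting ones (92908 and 62663), while with actinomycin D all 4 lie between 79514 and 84569.

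In untreated cells the desaturase genes and the thiolase gene Acat2 fell with stimulation and Srebf2 rose. Of the 29 members 3 were called lower and 1 higher by limma at an adjusted p under 0.05, against 4.69% of all tested genes called lower and 6.59% called higher. This comparison rests on 4 libraries and 1 residual degree of freedom. The median change of the members was 0.01 on the log2 scale, against 0.03 over all tested genes.

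Scd2 had 41567 in stimulated CD8 and 21650.3 in stimulated Th2 cells, against 92908 in resting CD8 and 62663 in resting Th2 cells. Both stimulated libraries lay below both resting ones, and the change was -1.35 ± 0.14 on the log2 scale (SE, adjusted p = 0.0284), or 2.54-fold lower. Scd1 had 7712 and 3246 in stimulated CD8 and Th2 cells, against 14026 and 7191 in resting CD8 and Th2 cells. Here the groups overlapped, because stimulated CD8 cells stood above resting Th2 cells, while within each cell type the stimulated library was the lower one (-1.01 ± 0.14, adjusted p = 0.0354). In bulk RNA a change in the share of cells that express a gene and a change in RNA per cell cannot be told apart.

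Acat2 encodes the cytosolic thiolase that joins acetyl-CoA units at the entry to the mevalonate pathway. It had 894 and 326 in stimulated CD8 and Th2 cells, against 2313 and 1366 in resting CD8 and Th2 cells. Both stimulated libraries lay below both resting ones (-1.72 ± 0.22, adjusted p = 0.0335, 3.29-fold lower). Of the 50-base stretches of Acat2 transcripts 39.1% also occur in Acat3, a near-identical gene, so its counts are uncertain.

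Srebf2 encodes SREBP2, the factor known for driving sterol genes. It had 10053 and 12376 in stimulated CD8 and Th2 cells, against 6126 and 7283 in resting CD8 and Th2 cells. Both stimulated libraries lay above both resting ones (0.74 ± 0.12, adjusted p = 0.0403). In the sterol branch none of the 6 mevalonate and isoprenoid genes and none of the 11 genes from squalene to cholesterol passed the test in this small fit, with changes of -0.55 to 0.60 and of -0.62 to 0.80 on the log2 scale. Of them 2 and 3 had an unadjusted p under 0.05, so no lack of change can be read from this.

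The 4 calls depended on the fit. limma without a trend, or without the filter on low values, called 0 members, edgeR called 4 and DESeq2 5, and a model of all 8 libraries with the stimulation by drug interaction, chosen after seeing the data, called 12, which were these 4 and Hmgcs1 (-0.55), Pmvk (0.60), Nsdhl (-0.59), Hsd17b7 (0.80), Dhcr7 (-0.62), Stard4 (-0.55), Acaca (-0.49) and Acly (0.71). Scaling to the ribosomal protein genes moved the median of all genes to -0.34 and gave 9 lower and 0 higher (2811 and 543 of all tested genes), with Srebf2 at 0.37 (adjusted p = 0.0858), and quantile normalisation gave 4 lower and 0 higher. Since 3 libraries leave no residual degree of freedom, leaving out 1 library was run in that 8-library model, also a choice made after seeing the data. Against its 12 it gave 2 called members without resting CD8, 11 without stimulated CD8, 3 without resting Th2 and 8 without stimulated Th2 cells. Scd2 was lost without resting CD8, Srebf2 without resting Th2 and Scd1 without either, and Acat2 was called in all 4.

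**Figure D2:**
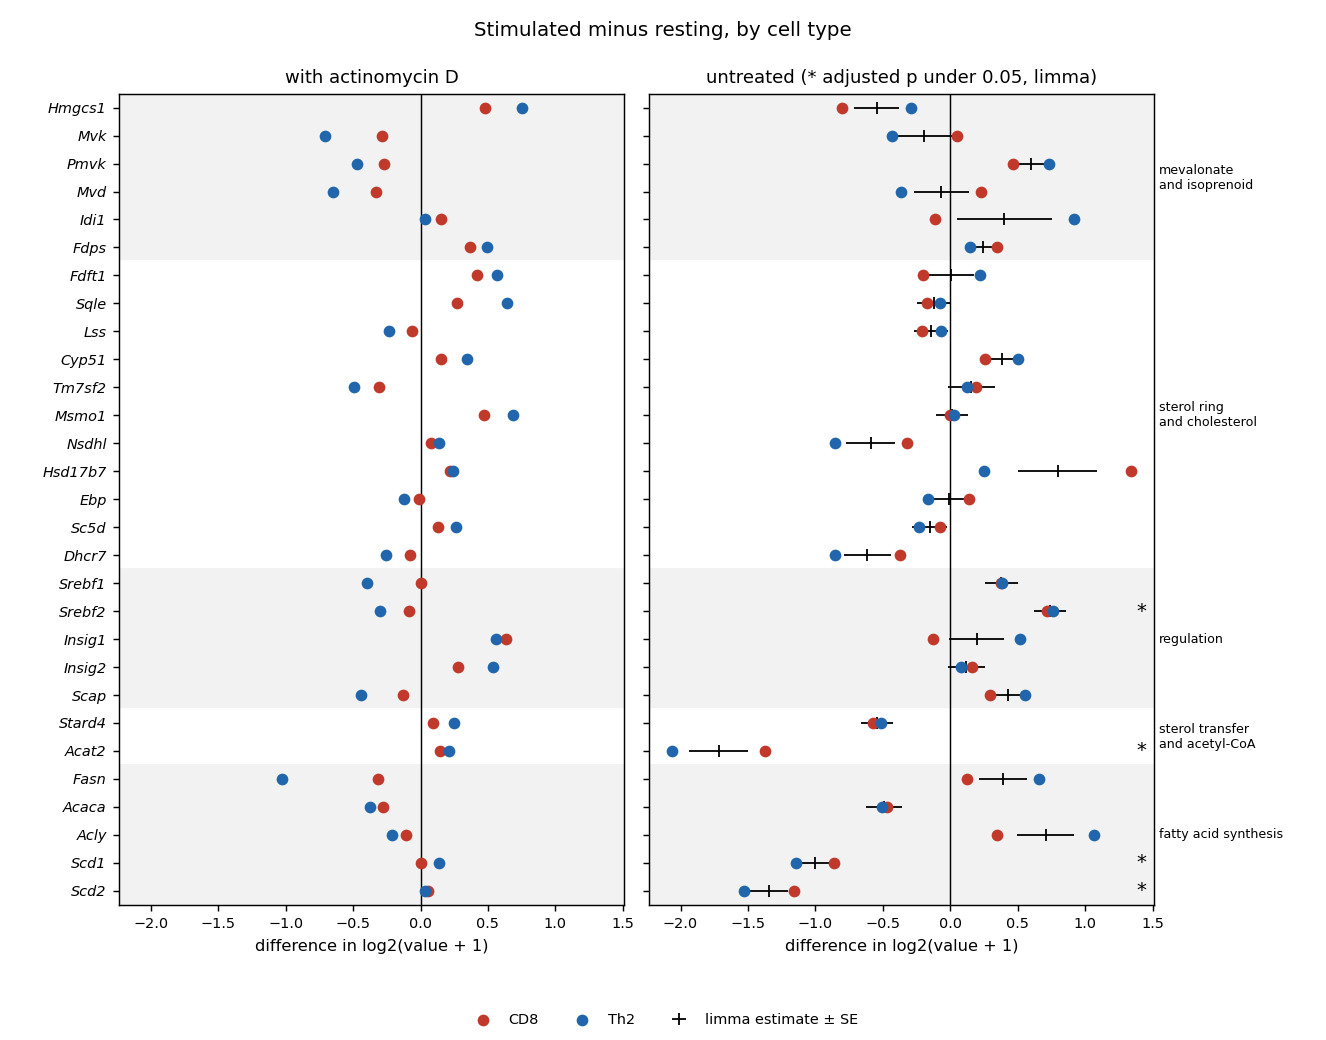
Difference in log2(value + 1) between the stimulated and the resting library of the same cell type, with actinomycin D on the left and untreated on the right; red points are CD8 and blue Th2, and black bars are the limma estimate ± SE over both untreated pairs. Untreated Scd2 fell by 1.35, and the star marks the 4 genes with an adjusted p under 0.05; scaled to ribosomal protein genes Srebf2 lost its call.

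With actinomycin D the fall of the desaturases was not seen, and large stimulation differences were rarer over all tested genes too. With the drug 0.437% of all tested genes in Th2 and 0.255% in CD8 cells were at least 2-fold lower, against 8.97% and 5.00% without it. At least 2-fold higher were 1.29% and 1.19% with the drug, against 9.58% and 7.54% without it. A term for the interaction asked whether the stimulation change differed between drug-treated and untreated cells. By limma 5 members had a higher change with the drug and 2 a lower one, against 7.06% and 7.44% of all tested genes. The comparison uses the untreated libraries above, so its calls do not stand apart from theirs. Its median over the members was 0.16, against -0.01 over all tested genes.

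Scd2 had 82456 and 84569 in stimulated CD8 and Th2 cells with the drug, against 79514 and 82653 in resting CD8 and Th2 cells with the drug. The interaction was 1.39 ± 0.35 (adjusted p = 0.0415). Scd1 had 16405 and 11164 in drug-treated stimulated CD8 and Th2 cells, against 16358 and 10178 in drug-treated resting CD8 and Th2 cells (interaction 1.07 ± 0.25, adjusted p = 0.0346). For both genes the stimulated and resting libraries of a cell type differed by at most 0.13 on the log2 scale under the drug.

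Acat2 had 1929 and 989 in drug-treated stimulated CD8 and Th2 cells, against 1746 and 853 in drug-treated resting CD8 and Th2 cells (interaction 1.89 ± 0.26, adjusted p = 0.0108). Hmgcs1, HMG-CoA synthase at the entry to the mevalonate pathway, had 9997 and 5171 in drug-treated stimulated CD8 and Th2 cells, against 7178 and 3076 in drug-treated resting CD8 and Th2 cells. Without the drug it had 10951 and 5841 in stimulated CD8 and Th2 cells, against 19075 and 7153 in resting CD8 and Th2 cells. So the stimulated library was the higher one with the drug and the lower one without it in both cell types (interaction 1.16 ± 0.22, adjusted p = 0.0201). An antisense gene on the opposite strand covers 12.1% of the Hmgcs1 exon bases.

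Stard4, a soluble carrier of cholesterol between membranes, followed the same signs. It had 7060.0 and 6179.6 in drug-treated stimulated CD8 and Th2 cells, against 6635 and 5191 in drug-treated resting CD8 and Th2 cells. Without the drug it had 5779 and 4743 in stimulated CD8 and Th2 cells, against 8615 and 6775 in resting CD8 and Th2 cells (interaction 0.72 ± 0.16, adjusted p = 0.0329).

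Srebf2 and Pmvk, phosphomevalonate kinase, had the opposite sign. Srebf2 had 8826 and 9275 in drug-treated stimulated CD8 and Th2 cells, against 9372 and 11438 in drug-treated resting CD8 and Th2 cells (interaction -0.93 ± 0.17, adjusted p = 0.0190). Pmvk had 2200.4 and 1155 in drug-treated stimulated CD8 and Th2 cells, against 2649 and 1605 in drug-treated resting CD8 and Th2 cells. Without the drug Pmvk had 1859.8 and 1559.6 in stimulated CD8 and Th2 cells, against 1344 and 939 in resting CD8 and Th2 cells (interaction -0.97 ± 0.25, adjusted p = 0.0445). For both genes the stimulated library was lower with the drug and higher without it in each cell type.

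The number of interaction calls was not stable. It was 0 without resting CD8 with the drug, resting Th2 with the drug or stimulated Th2 with the drug, 1 without resting CD8, 2 without resting Th2 or stimulated CD8 with the drug, 6 without stimulated Th2 and 12 without stimulated CD8 cells. edgeR called 1 member, Acat2 (adjusted p = 0.0473), and DESeq2 10, both run without stimulated CD8 cells with the drug. Scaling to the ribosomal protein genes gave 16 higher and 0 lower, against 4207 and 300 of all tested genes. That scaling put the median of all genes at 0.62, and Lss, turned round to 0.63, lay at that median.

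Across the 4 matched pairs actinomycin D went with higher shares of several late sterol enzymes and with a lower share of Sqle, and scaled to the ribosomal protein genes only the lower direction kept calls. By limma 7 members were called higher with the drug and 2 lower, against 16.8% and 21.9% of all tested genes, so the member counts (24.1% and 6.90%) are to be read against large shares everywhere. Markers moved with the drug too, in both directions. Cd3e (0.52), Cd3g (0.63) and Cd3d (0.62) of the 5 T cell markers were called higher. So was Cd68 (1.64), the only myeloid marker of the 5 in the table that was tested, with 189 to 414 in drug-treated libraries and 73.2 to 86.1 in untreated ones. Of the CD8 markers Cd8a (0.58) and Cd8b1 (0.51) were called higher and Tbx21 (-3.24) lower. Of the Th2 markers Gata3 (-1.48), Il13 (-1.25) and Ccr8 (-1.37) were called lower. Their part in the members' changes was not tested. The values are relative to the RNA that remained in each library, not amounts per cell. By a count chosen after seeing the data, 8 members were higher and 5 lower in all 4 pairs, against 27.1% and 28.7% of all tested genes.

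Sqle, squalene epoxidase, a rate-limiting enzyme after squalene, had 2796 and 1665 in stimulated CD8 and Th2 cells with the drug and 2319 and 1065 in resting CD8 and Th2 cells with it. Without the drug it had 5224 and 3668 in stimulated CD8 and Th2 cells and 5877 and 3861 in resting CD8 and Th2 cells. Every drug-treated library lay below every untreated one (-1.31 ± 0.18, adjusted p = 0.00406, 2.48-fold lower), and the gene was called lower in all 20 alternatives. Cyp51 was also called lower, with 12328 and 10966 in drug-treated stimulated CD8 and Th2 cells and 11106 and 8647 in drug-treated resting ones, against 18527 and 13722 in untreated stimulated CD8 and Th2 cells and 15479.7 and 9679 in untreated resting ones. Its groups overlapped, its change was small (-0.39 ± 0.12, adjusted p = 0.0479), and the call was lost whichever library was left out.

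Tm7sf2 and Dhcr7 are reductases of the sterol ring pathway, Dhcr7 the one that turns 7-dehydrocholesterol into cholesterol. Tm7sf2 had 646 and 474 in drug-treated stimulated CD8 and Th2 cells and 798 and 666 in drug-treated resting ones, against 344 and 331 in untreated stimulated CD8 and Th2 cells and 302 and 304 in untreated resting ones (0.99 ± 0.19, adjusted p = 0.0112). Dhcr7 had 3365 and 3624 in drug-treated stimulated CD8 and Th2 cells and 3553 and 4317 in drug-treated resting ones, against 1644 and 1531 in untreated stimulated CD8 and Th2 cells and 2134 and 2773 in untreated resting ones (0.91 ± 0.15, adjusted p = 0.00674). For both genes every drug-treated library lay above every untreated one, and the call held with any 1 library left out. Tm7sf2 shares 12.1% of its exon bases with Vps51 on the same strand.

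Lss, lanosterol synthase, which closes the sterol ring, had 6487 and 5186 in drug-treated stimulated CD8 and Th2 cells and 6762 and 6083 in drug-treated resting ones, against 3893 and 3929 in untreated stimulated CD8 and Th2 cells and 4506 and 4120.1 in untreated resting ones (0.57 ± 0.12, adjusted p = 0.0140). Ebp, a sterol isomerase, had 2064 and 2281 in drug-treated stimulated CD8 and Th2 cells and 2079 and 2478 in drug-treated resting ones, against 1518 and 1505 in untreated stimulated CD8 and Th2 cells and 1377 and 1689 in untreated resting ones (0.55 ± 0.12, adjusted p = 0.0166). Neither gene's groups overlapped, but scaled to the ribosomal protein genes Lss came to -0.05 and Ebp to -0.07.

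In the mevalonate branch Mvk, mevalonate kinase, had 609 and 305 in drug-treated stimulated CD8 and Th2 cells and 743 and 498 in drug-treated resting ones, against 281 and 244 in untreated stimulated CD8 and Th2 cells and 272 and 329 in untreated resting ones (0.87 ± 0.23, adjusted p = 0.0272). Mvd, the decarboxylase that makes the isoprenoid unit, had 1768 and 865 in drug-treated stimulated CD8 and Th2 cells and 2219.6 and 1355 in drug-treated resting ones, against 1016 and 638 in untreated stimulated CD8 and Th2 cells and 867 and 821 in untreated resting ones (0.83 ± 0.18, adjusted p = 0.0162). Both genes were higher with the drug in each pair, and for both the drug-treated stimulated Th2 library lay within the untreated range. Scd1 was also called higher (0.90 ± 0.26, adjusted p = 0.0363), with pair differences of 1.09 and 1.78 in stimulated CD8 and Th2 cells and 0.22 and 0.50 in resting CD8 and Th2 cells.

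The number of members called with actinomycin D was 3 without resting Th2 with the drug, 4 without resting Th2, without stimulated CD8 or without stimulated CD8 with the drug, 5 without either resting CD8 library, 9 without stimulated Th2 with the drug and 10 without stimulated Th2 cells. Sqle, Tm7sf2 and Dhcr7 were called each time. edgeR called 3 members and DESeq2 7, both run without stimulated CD8 cells with the drug. Scaling to the ribosomal protein genes, whose share was 2.70% to 3.51% with the drug and 1.75% to 2.05% without it, moved the median of all genes to -0.62 and gave 0 members higher and 9 lower, against 46 and 4595 of the 10972 tested genes, so higher calls were lost throughout the table.

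**Figure D3:**
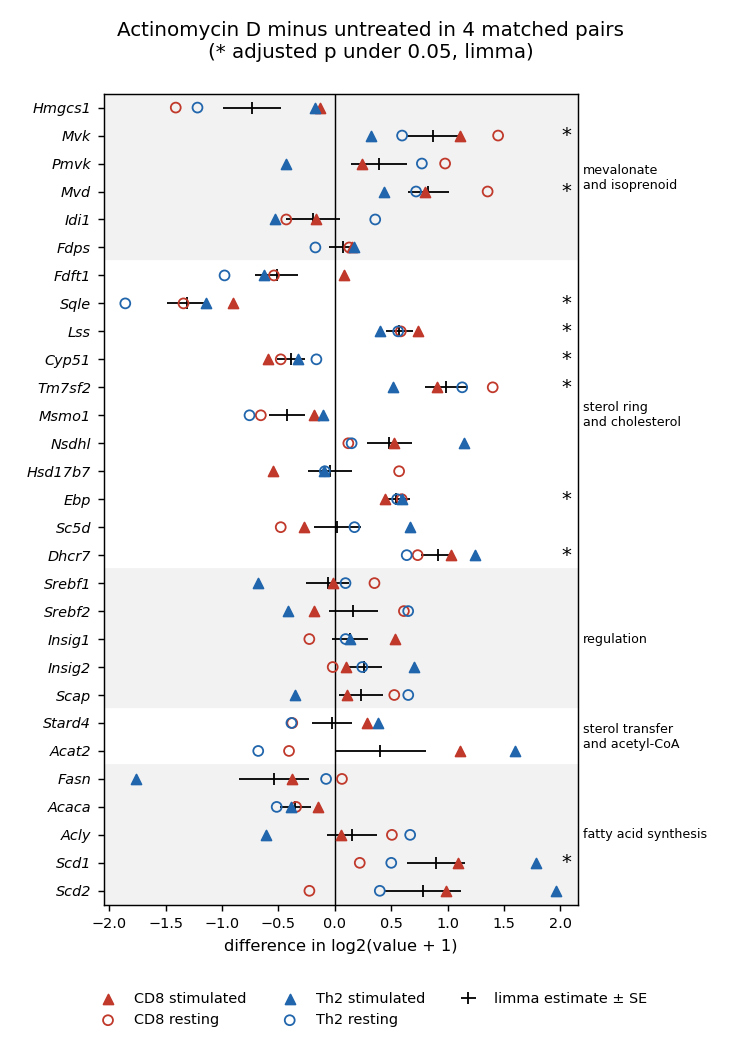
Difference in log2(value + 1) between the actinomycin D library and its untreated match in 4 pairs (triangles stimulated, circles resting, red CD8, blue Th2), with the limma estimate ± SE as a black bar and a star at an adjusted p under 0.05. Sqle lies at -1.31 and Tm7sf2 at 0.99; scaled to the ribosomal protein genes none of the 7 higher genes stayed called, and Lss and Ebp turned round.

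CD8 cells had higher levels than Th2 cells of many genes of both branches. By limma 8 members were called higher in CD8 cells and 1 lower, against 9.97% and 11.5% of all tested genes. The median difference of the members was 0.35 on the log2 scale, against 0.02 over all tested genes. By the same kind of count, in all 4 matched conditions 14 members were higher in CD8 cells and 3 lower, against 26.6% and 26.4% of all tested genes.

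Acaca, acetyl-CoA carboxylase, the committed step of fatty acid synthesis, had 1347 and 1638 in stimulated and resting CD8 cells with the drug and 1497 and 2078 in stimulated and resting untreated CD8 cells, against 668, 867, 873 and 1239 in the matching Th2 cells. Every CD8 library lay above every Th2 library (0.86 ± 0.12, adjusted p = 0.00182), and the call held in all 20 alternatives. Of the Acaca 50-base stretches 30.4% also occur elsewhere, nearly all in a processed pseudogene. Fasn, fatty acid synthase, differed by a similar amount (0.89 ± 0.28, adjusted p = 0.0620) and did not pass.

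Hmgcs1 had 9997 and 7178 in stimulated and resting CD8 cells with the drug and 10951 and 19075 in stimulated and resting untreated CD8 cells, against 5171, 3076, 5841 and 7153 in the matching Th2 cells. The lowest CD8 library stood just above the highest Th2 library, so the groups barely parted (1.12 ± 0.24, adjusted p = 0.0159). Fdps, farnesyl diphosphate synthase, had 5564 and 4321 in stimulated and resting CD8 cells with the drug and 5018 and 3953 in stimulated and resting untreated CD8 cells, against 3545, 2517, 3143 and 2835 in the matching Th2 cells. Its groups did not overlap (0.65 ± 0.11, adjusted p = 0.00515), and the call held with any 1 library left out. A same-strand gene model covers 26.7% of the Fdps exon bases.

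Sqle was 0.75 ± 0.17 higher in CD8 cells (adjusted p = 0.0180) and Cyp51 0.41 ± 0.12 (adjusted p = 0.0428). Msmo1, which removes methyl groups from the sterol ring, had 5804 and 4189 in stimulated and resting CD8 cells with the drug and 6594 and 6599 in stimulated and resting untreated CD8 cells, against 4206, 2619, 4511 and 4423 in the matching Th2 cells (0.57 ± 0.14, adjusted p = 0.0284). Mvd (0.62 ± 0.18, adjusted p = 0.0480) and Scd1 (0.86 ± 0.24, adjusted p = 0.0393) were also called. These 5 genes were higher in CD8 cells in each matched condition, and for each the ranges of the cell types overlapped.

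Hsd17b7, which reduces the keto group left on the sterol ring, went the other way. It had 2365 and 2029 in stimulated and resting CD8 cells with the drug and 3453 and 1365 in stimulated and resting untreated CD8 cells, against 5309, 4489.7, 5684 and 4771 in the matching Th2 cells. Every CD8 library lay below every Th2 library (-1.21 ± 0.20, adjusted p = 0.00478, 2.31-fold lower), and the call held in 19 of 20 alternatives.

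The number of members called between cell types was 3 without stimulated CD8 with the drug, 4 without resting Th2 with the drug, 5 without either resting CD8 library, 6 without stimulated CD8 or resting Th2, 7 without stimulated Th2 and 8 without stimulated Th2 with the drug. Fdps, Hsd17b7 and Acaca were called each time, and Cyp51 was lost each time. edgeR called 3 members and DESeq2 6, both run without stimulated CD8 cells with the drug. The untreated libraries alone, chosen after seeing the data, gave 4. Scaling to the ribosomal protein genes gave 2 higher (Fasn and Acaca) and 1 lower, against 666 and 884 of all tested genes.

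**Figure D4:**
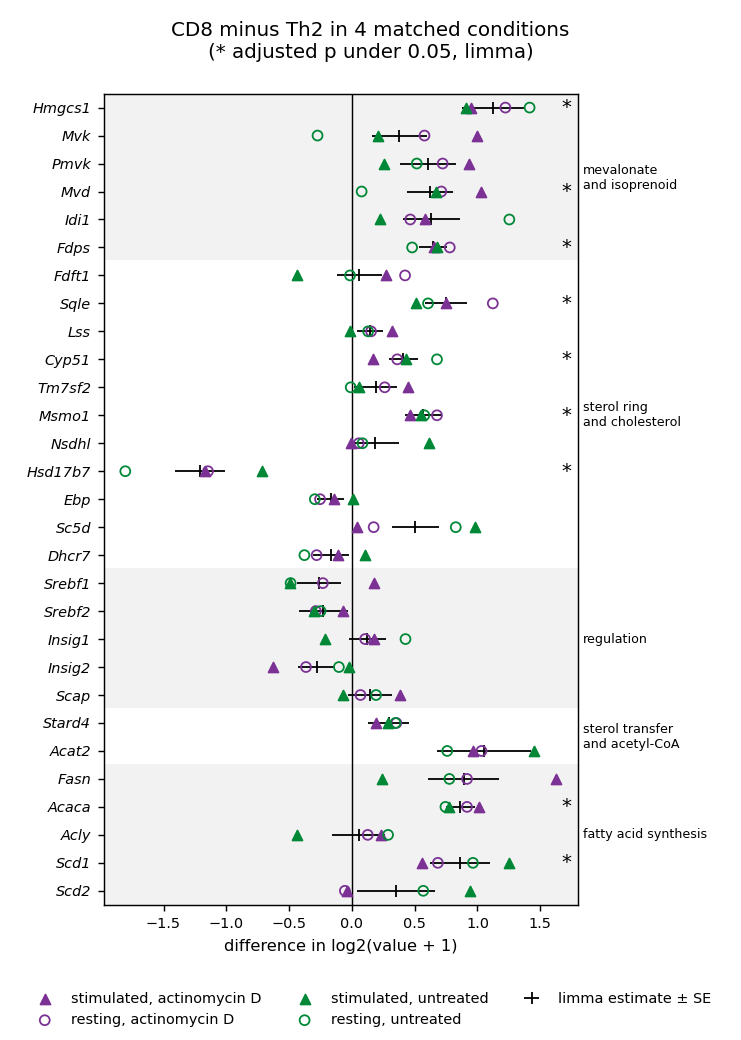
Difference in log2(value + 1) between the CD8 and the Th2 library in 4 matched conditions (purple with actinomycin D, green untreated, triangles stimulated, circles resting), with the limma estimate ± SE as a black bar and a star at an adjusted p under 0.05. Hmgcs1 lies at 1.12 and Hsd17b7 at -1.21; no called gene changed sign under the scalings tried.

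Averaged over untreated and drug-treated cells, stimulation moved no member past the test. limma called 0 of the 29, against 0.118% of all tested genes called higher and 0% lower, while 6 members and 1610 genes in all had an unadjusted p under 0.05. edgeR and DESeq2 also called 0 members, against 3 and 428 of the 14035 genes that each tested. The smallest adjusted p was 0.253, for Acaca (-0.41 ± 0.12). Whether stimulation differed between CD8 and Th2 cells could be tested with little power: limma called 0 members, against 0% of all tested genes higher and 0% lower, with 0 members and 27 genes at an unadjusted p under 0.05. Here too edgeR and DESeq2 called 0 members, against 0 and 17 of the 14791 genes that each tested.

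The other 10 members passed none of the 6 limma tests as first fitted, though some were called under alternatives, such as Fdft1 with actinomycin D by DESeq2 (adjusted p = 0.0226) and Srebf1 (0.0330), Scap (0.0318) and Fasn (0.000829) in the interaction by DESeq2. Among the SREBP control genes Srebf1 ranged between 2133 and 3893, Scap between 1503 and 2477, Insig1 between 1876 and 3341 and Insig2 between 1043 and 1949.8. Averaged over both cell types, the changes of all 5 control genes with untreated stimulation were positive, between 0.12 and 0.74, with Srebf2 as the only call. Over all tested genes the median was 0.03, with a 10th percentile of -0.78 and a 90th of 0.85. By cell type Insig1 was lower in stimulated CD8 cells (-0.13) and higher in stimulated Th2 cells (0.52). The changes of Insig1 and Insig2 turned negative when scaled to the ribosomal protein genes. Insig1, a textbook SREBP target, was 0.39 ± 0.15 over all libraries (adjusted p = 0.320).

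Among the synthesis genes Fdft1, squalene synthase, ranged between 1082 and 2483, Nsdhl, a sterol dehydrogenase, between 1666 and 3691, and Sc5d, a sterol desaturase, between 2568 and 5343. Idi1 ranged between 60.7 and 146, and 25.3% of its 50-base stretches occur in other genes, most of them in a pseudogene. Fdft1 shares 26.5% of such stretches, mainly with Ctsb, which overlaps it on the opposite strand. Acly ranged between 9687 and 20307, and Fasn between 2563 and 10297, the lowest value in stimulated Th2 cells with the drug.

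Genes around the pathway were counted on lists. In untreated stimulated cells, where 6.59% of all tested genes were called higher and 4.69% lower, 5 lists were read. The list of LXR and cholesterol efflux genes, which sterol excess is known to switch on, had 1 of 6 tested genes higher and 2 lower. Abcg1, a cholesterol exporter, fell (-1.80 ± 0.19, adjusted p = 0.0284), with 120 and 169.9 in stimulated CD8 and Th2 cells, against 456 and 549 in resting CD8 and Th2 cells. Mylip, which marks lipoprotein receptors for breakdown, fell too (-1.62 ± 0.28, adjusted p = 0.0445), and Nr1h2, an LXR receptor, rose (0.88 ± 0.16, adjusted p = 0.0466). Abca1 of the same list had a positive change (0.63 ± 0.15, adjusted p = 0.0637) and did not pass. Lpcat3 (0.13) and Smpdl3a (-0.35) were not called either, so the list had no single direction. Of 17 genes of fatty acid supply, activation, elongation and desaturation 0 were higher and 2 lower, Elovl6 (-0.83) and Fads1 (-1.10). Of 14 genes of sterol sensing, transport and storage 0 were higher and 1 lower, Lpin1 (-1.16), of 18 of fatty acid oxidation 1 was higher, Etfb (0.76), and 0 were lower, and of 13 of the isoprenoid branch 0 were called.

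The interaction of stimulation with actinomycin D was called for each of Abcg1 (1.76), Mylip (2.41), Elovl6 (1.07), Fads1 (1.46) and Lpin1 (1.51) as higher and for Nr1h2 (-1.56) as lower, in fits that share the untreated libraries. By list the calls were 2 higher and 1 lower of 6 for LXR and efflux, 2 and 0 of 17 for fatty acid supply, 2 and 0 of 14 for sterol sensing, 1 and 1 of 18 for oxidation and 0 and 1 of 13 for the isoprenoid branch. Of all tested genes 7.06% were called higher and 7.44% lower in this interaction. With actinomycin D against untreated cells 16.8% of all tested genes were called higher and 21.9% lower. There the list calls were 1 higher and 1 lower, 6 and 1, 3 and 2, 8 and 0 and 1 and 2 in the same order of lists. The sterol-sensing ubiquitin ligase Rnf139 had the lowest of these changes (-1.78 ± 0.14). Between CD8 and Th2 cells the list calls were 1 and 1, 2 and 1, 2 and 2, 2 and 2 and 2 and 0, against 9.97% and 11.5% of all tested genes. Me1, malic enzyme, a source of NADPH for fatty acid synthesis, was 4.24 ± 0.26 higher in CD8 cells (adjusted p = 3.8e-05), with 536 to 1349 in CD8 libraries and 33.1 to 41.9 in Th2 libraries.

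GCLiPP peaks were found for 26 of the 29 members, 177 peaks in all, each of 70 bases. That is 89.7% of the members, against 59.1% of all tested genes. Level bears on this share: of the 2944 tested genes with a mean between 1664 and 6372, the interquartile range of the members, 87.3% had a peak, close to the share of the members. Mvk, Dhcr7 and Acat2 had none. The list pools all GCLiPP libraries and scores each peak with a whole number that no source defines, so cell types and states cannot be compared.

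Scd2 had 39 peaks, rank 10 by number among the 6486 tested genes with a peak, over 3560 bases before the gene's end. Its highest peak (score 249) centred 1239 bases before the end, and peaks of 143 and 177 stood 1696 and 124 bases before it. Srebf2 had 16 peaks, Insig1 14, Cyp51 and Stard4 13 each, Fasn 12, and Acly and Hmgcs1 10 each, while 5 members had a single peak. The median number per member with a peak was 3.5, against 2 over the tested genes.

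The highest peak of Srebf2 (201) centred 1336 bases and that of Scd1 (193) 1345 bases before the gene's end. Those of Acly (136) and Hmgcs1 (119) lay 57 and 60 bases before it. In Sqle all 3 peaks fell within 232 bases of the end. None of the 25 highest peaks that could be read held AATAAA, against 9.62% of those of all tested genes, and 2 held ATTTA, against 8.21% of those of all tested genes.

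The median score of the member peaks was 29, against 24 for the list. With only peaks of at least 24 the members kept 109 peaks (61.6%, against 50.4% of the list) on 18 genes, and 40.1% of all tested genes had such a peak. Scd2 alone gave 39 of the 177 peaks, so it weighs heavily in the median score and the 61.6%. Neither value was matched for RNA level. 170 of the 177 peaks lay inside an annotated 3′ UTR. The methods describe a search for peaks within 3′ UTRs, so this count says little about these genes. Of the 177 peaks 3 carried names given to CD8 cells, 2 in Scd2 and 1 in Srebf2, and 0 carried names given to Th2 cells. In the whole list of 27729 peaks, 253 were named for CD8 and 111 for Th2 cells. Over the 26 members with a peak the summed score and the mean RNA level had a Spearman rank correlation of 0.73, against 0.55 over the 6486 tested genes. The scores pool the GCLiPP libraries, and the RNA level is the mean of the 8 RNA-seq libraries. Both correlations run across genes, and genes are not independent replicates.

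**Figure D5:**
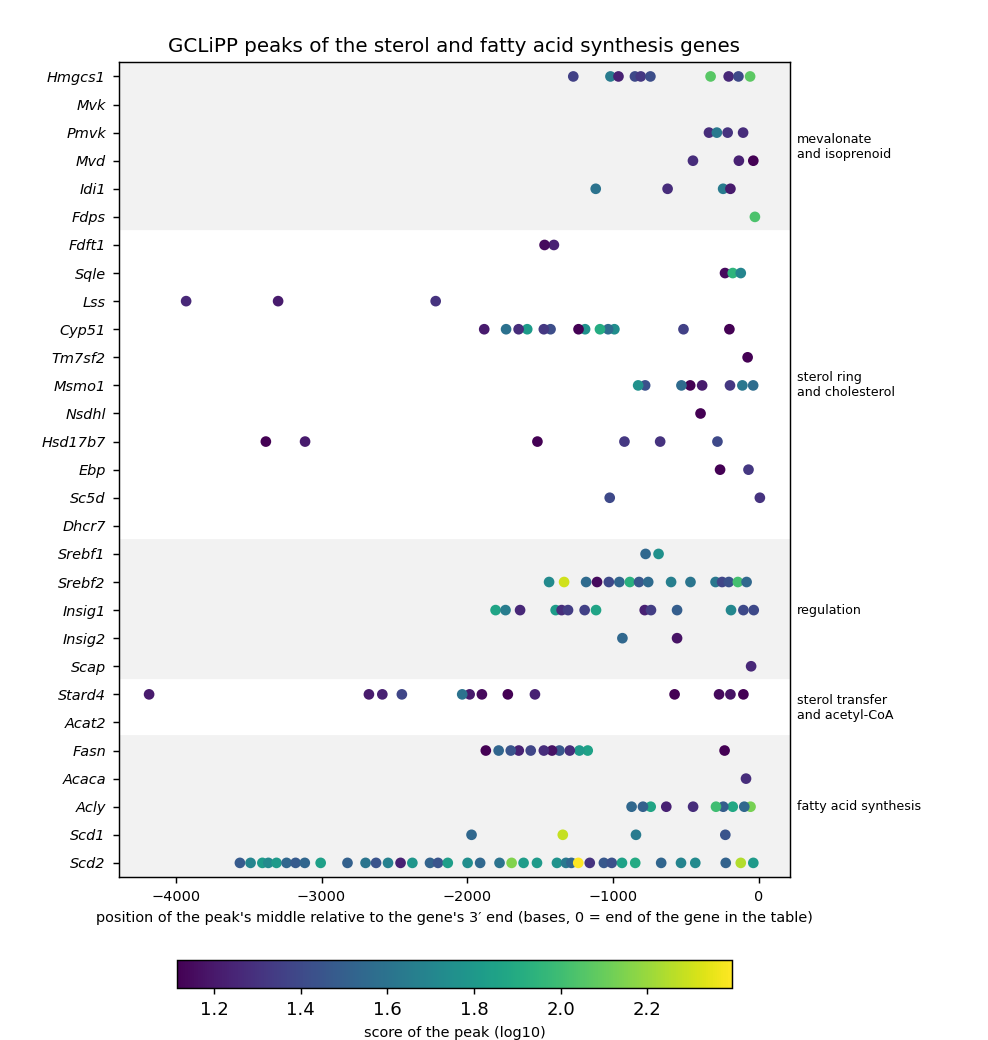
Position of the middle of each of the 177 GCLiPP peaks relative to the end of its gene (0, in bases), 1 row per member, coloured by the score on a log10 scale. Scd2 carries 39 peaks spread over 3560 bases, while Mvk, Dhcr7 and Acat2 have none.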

How the data were processed

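The 8 RNA-seq libraries and the pooled GCLiPP peak list were analysed. Per the processing notes the authors used STAR and Bowtie2 with mm10. The deposited values are a normalised signal, gene read counts divided by 1 factor per library: in each library 100% of values equalled an integer number of reads, with a tolerance of 0.01 read, although the methods name FPKM. For counting, tool and strand setting were not given in the sources used here. The deposited peak score is a whole number. A second table with the same values was not used.

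limma 3.58.1 fitted log2(value + 1), with trend, over genes with a mean of at least 50, so folds understate changes of low genes. The planned filter was in FPKM, and 50 stands in for it. p-values were Benjamini-Hochberg adjusted over all 10972 genes. edgeR 4.0.16 and DESeq2 1.42.0 took the recovered reads of 7 libraries, without stimulated CD8 cells with actinomycin, whose factor near 1 was not accepted as a scaling. Scripts were tested on simulated data. The members and lists were chosen with earlier results of these data known. All 29 members are named, with every library's value for those called. Depth limits only counting error, and no interval was formed. Stard4 sequence is not shown.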

Additional observations from a re-analysis of the deposited data

Results flagged for a closer look

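The change with stimulation differed between actinomycin D and untreated cells, by the interaction term of the limma fit, for 7 members. The difference, with the drug minus without it on the log2 scale, was 1.16 for Hmgcs1, 0.72 for Stard4, 1.89 for Acat2, 1.07 for Scd1, 1.39 for Scd2, -0.93 for Srebf2 and -0.97 for Pmvk. With each of 3 drug-treated libraries left out none of the 7 was called. Drug and RNA preparation cannot be told apart. No condition held the 4 libraries needed to look for a single outlying library.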

How the results depend on the processing

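No paired analysis was possible because the GCLiPP samples that share experiment numbers were deposited as 1 pooled peak list and each RNA-seq condition has 1 library, so RNA-seq groups share no replicate numbers. The matched pairs above join conditions. Leaving out 1 library gave 3 to 10 called members for actinomycin D (9 with all), 2 to 11 for untreated stimulation (4, but 12 in the 8-library model in which these were run), 0 to 12 for the interaction with the drug (7), 3 to 8 for CD8 against Th2 (9) and 0 for the other 2 comparisons. edgeR, run without stimulated CD8 cells with the drug, gave 3 for actinomycin D, 1 for the interaction and 3 for CD8 against Th2. Scaling to ribosomal protein genes gave 9 for untreated stimulation, 16 for the interaction and 3 for CD8 against Th2, and turned round Lss (-0.0485) and Ebp (-0.0722) with actinomycin D and Lss (0.63) in the interaction. Without the filter 0 were called for untreated stimulation and 3 for the interaction, and without the trend 0 and 3. Of the fits added after seeing the data, the actinomycin model with the interaction gave 18, the 8-library model of untreated stimulation 12, and untreated libraries alone 4 for CD8 against Th2. Peaks of at least the median score numbered 109. An alternative counted as unchanged if it stayed on the same side of the threshold and kept the direction. A turn of sign also counted as unchanged if neither fit made a call and the values differed by less than the main fit's SE. By this rule 477 of 580 pairs of member and alternative were unchanged with actinomycin D. The counts were 376 of 435 for untreated stimulation, 433 of 522 for the interaction and 508 of 580 for CD8 against Th2. The causes were not tested.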
